A study of Mus musculus with 12 samples.

Results

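B16F10 cells, a mouse melanoma line grown in culture, were compared with and without a low dose of decitabine. Decitabine (5-aza-2'-deoxycytidine) is a cytidine analogue that is built into DNA during replication and traps DNA methyltransferases there, so that methylation is lost as cells divide. The treated group received 0.1 µM for 48 h. The control group is labelled only as control, and the labels used here name no vehicle for it. Both groups are the same line, dead cells were taken out with microbeads before RNA was prepared, and each group has 3 RNA-seq libraries, 6 of the 12 in the series. The members of the comparison are all genes of this line that passed a filter on low counts, 14344 of 46517 listed. The labels do not say whether the 3 libraries of a group came from separate cultures, so a p-value speaks only to the variation among these libraries, part of which may be technical.

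Methylated cytosines in CpG dinucleotides of a promoter go together with stable silencing. In mouse somatic cells this holds above all for genes used only in germ cells, for many X-linked families and for repeats, and Dnmt1, the maintenance methyltransferase, copies the mark to the new DNA strand. Melanocytes and pigmented melanoma cells are known by the enzymes and structural proteins of the melanosome, the organelle in which melanin is made.

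The libraries held 48527578 to 58976316 estimated counts, and 3 counts corresponded to 0.0509 to 0.0618 CPM (counts scaled to a common library total). The first principal component of log2 CPM carried 69.8% of the variance and separated the groups. The share of counts from mitochondrial genes was between 6.40% and 8.05% in the control and between 7.63% and 9.90% in the decitabine libraries, so the groups overlapped (exact permutation test, two-sided, p = 0.2, where 0.1 is the smallest value that 3 against 3 allows). Beside a changed gene, the part of this share in the result was not tested.

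The cells carried the markers of their label. The 8 melanocyte markers summed to between 13080 and 13370 CPM in the control and to between 10380 and 10600 CPM in the decitabine libraries. Markers of T and NK cells summed to at most 0.0989 CPM in any library, with Cd3d, Cd3e, Ncr1 and Nkg7 at 0 in all 6. Macrophage and blood markers summed to between 2.22 and 3.27 CPM in the control and between 3.54 and 4.63 CPM with decitabine, 0 of 5 were called, and Adgre1 was at 0 throughout. Fibroblast markers summed to between 6.11 and 6.25 CPM and between 7.59 and 10.97 CPM, and 2 of 5 were called higher, Pdgfra and Col3a1. Muscle markers summed to at least 38.96 CPM in the decitabine libraries and to less in every control library, nearly all of it Des, with Myod1 at 0 in all 6 libraries. Neuron markers summed to between 239.6 and 271.5 CPM in the control and between 216.2 and 246.3 CPM with decitabine. Nearly all of this was Tubb3, 0 of the 4 markers were called, and Snap25 was at 0 in all 6 libraries. Of the other lists, 1 B cell marker (Cd79a) and 1 hepatocyte marker (Ttr) were called higher from near 0. The part of these markers in the results was not tested.

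The drug's target read lower with treatment. Dnmt1 (ENSMUSG00000004099, chromosome 9, 20907209 to 20959888) stood at 314, 313 and 293 CPM in the control libraries and 187, 203 and 191 CPM in the decitabine libraries. Every decitabine library was below every control library (log2 fold change -0.66, SE 0.0563, adjusted p = 2.57e-08 in edgeR's quasi-likelihood test with Benjamini-Hochberg adjustment, the test behind every adjusted p given here).

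The balance of calls is given by starting level. Among genes with a control mean of 5 CPM or more, more were called lower than higher. Over all tested genes, 21.4% were called higher and 19.8% lower at an adjusted p under 0.05, 41.2% in either direction. Of 12374 protein-coding genes tested, 23.3% were higher and 21.9% lower. At a control mean under 0.5 CPM, leaving aside genes with at most 3 control counts, 522 of 1102 tested protein-coding genes were higher and 3 were lower. At 5 to 50 CPM, 994 of 5201 were higher and 1296 lower, and at 50 to 500 CPM 724 of 4240 were higher and 1276 lower. At 500 CPM or more, 33 of 221 were higher and 62 lower. The filter on low counts admits a gene of very low control level chiefly when it rises, so that the count in the lowest class does not describe all genes there, of which 2399 were listed. In the classes above, nearly every listed gene was tested.

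**Figure D1:**
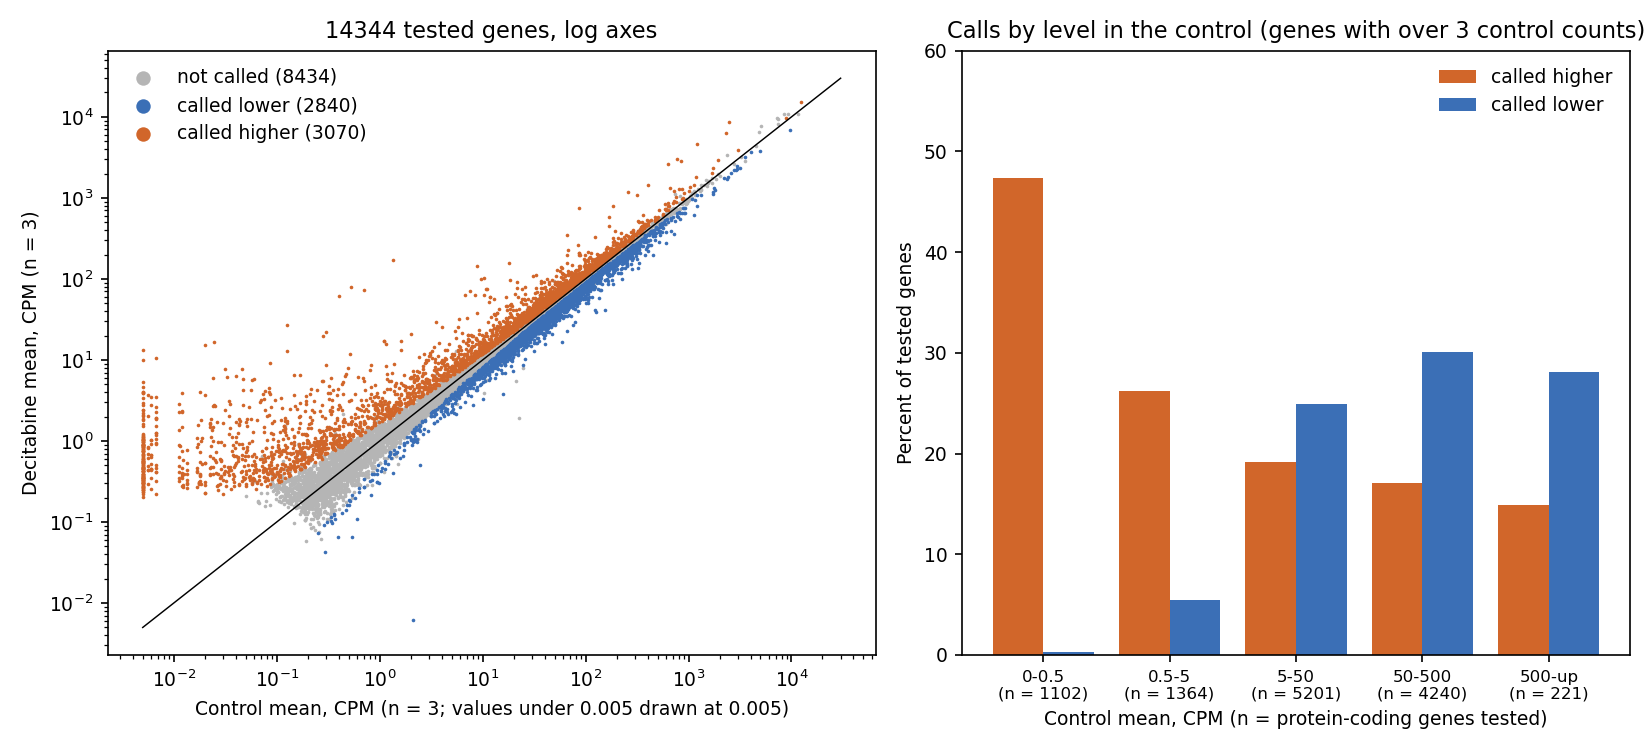
Left, mean CPM of each tested gene in the decitabine libraries against its mean in the control libraries, log axes, 3 libraries each, coloured by call, with the line of equal level. Right, percent of tested protein-coding genes called higher and lower in each class of control mean: 47.4% were higher and 0.272% lower under 0.5 CPM, against 14.9% and 28.1% at 500 CPM or more.

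The size of the changes was lopsided as well. A rise of at least 2-fold was called for 8.33% of all tested genes, of 4-fold for 5.01% and of 16-fold for 2.56%. A fall of those sizes was called for 0.809%, 0.0488% and 0.00697%. Of the protein-coding rises of at least 2-fold, 246 were in genes with at most 3 control counts and 520 in other genes under 0.5 CPM. Falls of that size numbered 0 and 3 there, and the filter admits such genes chiefly when they rise. With a filter at 50 counts, 609 genes were at least 2-fold higher and 65 at least 2-fold lower. Among protein-coding genes with a control mean between 50 and 500 CPM, 21 of the 724 higher genes had risen at least 2-fold, and 17 of the 1276 lower genes had fallen as far.

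A set of genes with few or no counts in the control was counted in every decitabine library. Silent is used here for a gene with at most 3 counts over the 3 control libraries, and switched on for a silent gene that was called higher. Of 28947 listed silent genes, 260 were switched on, or 0.898%. All had at least 10 counts in each decitabine library, which the filter asks of such a gene, and 216.7 ± 3.79 of them (mean and SD, n = 3) were at 0 in a given control library. Together they took 0.0274% ± 0.000985 of the counts in decitabine libraries (SD, n = 3), so that each was a rare transcript. Leaving out 1 control library gave 395 to 397 such genes and leaving out 1 decitabine library 300 to 316, where the filter asks for fewer libraries. It was 50 with a filter at 50 counts, 698 with no filter and 150 when silent meant 0 control counts. In RNA from a whole culture, a few cells with much of a transcript cannot be told apart from many cells with little of it.

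Switching on was nearly limited to protein-coding genes in this table. Among silent protein-coding genes 246 of 8121 were switched on, 3.03%, against 4 of 2658 silent lincRNA genes and 1 of 5352 silent processed pseudogenes. The decitabine mean of the 246 ran from 0.204 to 13.4 CPM with a median of 0.545 CPM, and 64 of them reached 1 CPM. Their median was 0.560, 0.570 and 0.554 CPM in the 3 decitabine libraries; the filter asks for counts in each of them. Of the other silent protein-coding genes, 5259 had 0 counts in the decitabine libraries too, and 131 had 30 or more counts over the 3 decitabine libraries but did not pass the filter and were not tested.

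The switched-on protein-coding genes named here led by decitabine CPM among those with an official symbol. Names of Gm plus digits, Rik names and clone names were left out. Of the 246 genes 4 reached 5 CPM, among them Tex19.1 and Gm10718, which stood at 9.92 CPM and was left out for its name. Tex19.1 (ENSMUSG00000039329, chromosome 11, 121146143 to 121148319), a gene of the germline and placenta, read 0, 0.0202 and 0 CPM in the control libraries and 10.1, 10.8 and 10.6 CPM in the decitabine libraries. Its counts went from 1 to 1698, 1728 times the control (95% counting interval from 309.8 to 68310). Fgfr1 (ENSMUSG00000031565, chromosome 8, 25513654 to 25575718), a receptor tyrosine kinase for fibroblast growth factors, read 0, 0.0605 and 0 CPM in the control libraries and 3.66, 4.21 and 3.28 CPM in the decitabine libraries, which is 205 times the control (95% counting interval from 69.8 to 996). It was at 0 in 2 of the 3 control libraries and counted in every treated one. Got1l1, named for its likeness to an aspartate aminotransferase, read 0.036, 0 and 0 CPM in the control libraries and 3.43, 4.13 and 4.11 CPM in the decitabine libraries. Ces2e, a carboxylesterase gene, read 0, 0.0202 and 0.0334 CPM in the control libraries and 3.62, 3.77 and 4.53 CPM in the decitabine libraries. Rhox2a, Lilra6, Dppa4, Xlr4a and Pira2 were in the same class but have 38.7% to 97.8% of their 31-base words in common with further genes, which makes their counts uncertain.

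Silent genes of the germline were switched on at several steps of germ cell development. Of 22 piRNA pathway genes, which protect germ cells against transposons through small RNAs, 10 were silent in the control and 4 were switched on. Of 37 genes of meiotic chromosomes and recombination 19 were silent and 7 were switched on, and of 27 germ cell and early embryo regulators 16 were silent and 5 were switched on. Over all silent protein-coding genes the share switched on was 3.03%, and no test was made between lists. Of 39 genes of sperm and spermatid structure 28 were silent and 1, Pdha2, was switched on, and among 12 silent oocyte genes of 18 and 14 silent placental genes of 24 none was. Of 40 genes of the motile cilium 17 were silent and 1, Rsph4a, was switched on.

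The piRNA genes covered several steps of the pathway. Mov10l1 (ENSMUSG00000015365, chromosome 15, 88982909 to 89055152), the helicase that starts piRNA production, read 0, 0 and 0 CPM in the control libraries and 2.42, 2.77 and 2.08 CPM in the decitabine libraries, at least 134-fold higher against a floor of 3 counts over the 3 control libraries. Tdrd9, a Tudor-domain helicase of the nuclear arm, was not silent and rose from 0.377, 0.363 and 0.234 CPM to 2.9, 3.62 and 3.4 CPM (log2 fold change 3.35, SE 0.272, adjusted p = 1.37e-08). Tdrd12, another Tudor-domain gene of the pathway, had 4 control counts and read 0.018, 0.0202 and 0.0334 CPM in the control libraries and 1.35, 1.89 and 1.23 CPM in the decitabine libraries. For all 3 genes the lowest treated library was above the highest control, which was a condition for naming them. Of the 13 tested members 9 were higher and 0 lower, against 21.4% and 19.8% of all tested genes, but members that were silent could be tested only if they rose. With a filter at 50 counts the number higher was 4 in the piRNA list and 5 in the meiotic list.

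Among meiotic genes, structural parts of the chromosome axis rose from near 0. Sycp3 (ENSMUSG00000020059, chromosome 10, 88459569 to 88473236), a component of the lateral element of the synaptonemal complex, read 0.0539, 0.121 and 0.0836 CPM in the control libraries and 4.32, 4.34 and 2.87 CPM in the decitabine libraries (log2 fold change 5.46, SE 0.335, adjusted p = 3.17e-10). Decitabine replicate 3 was the lowest of the treated libraries and still far above the controls. Rec8, the meiotic cohesin subunit, read 0, 0 and 0 CPM in the control libraries and 2.08, 2.35 and 2.71 CPM in the decitabine libraries, at least 130.3-fold higher. Tex15, needed for meiotic recombination and transposon silencing in the testis, rose from 0.0425 to 1.24 CPM. The 3 lower members of 22 tested were Psmc3ip, which fell from 22.7 to 15.1 CPM, Trip13, a remodeller of HORMA-domain proteins, from 31.6 to 22.2 CPM, and Tex14, from 38.9 to 27.4 CPM; their log2 fold changes lay between -0.50 and -0.59, while 12 members were higher, beside the same 21.4% and 19.8% of all tested genes. Tex101, a germ cell surface protein gene, read 1.31, 1.21 and 0.953 CPM in the control libraries and 15.2, 17.5 and 14.8 CPM in the decitabine libraries (log2 fold change 3.77, SE 0.144, adjusted p = 4.24e-13), so that it was already transcribed in the control and still rose in every treated library.

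The promoters of 2 of these genes are shown because both hold CACGTG, a palindrome known as the E-box. Each is the RefSeq window of GRCm38.p6, the build of the files, from 250 bases before to 50 after the annotated start, written 5′ to 3′ on the gene's strand with the motif in capitals.
Sycp3 (chr10:88459337-88459636, strand +): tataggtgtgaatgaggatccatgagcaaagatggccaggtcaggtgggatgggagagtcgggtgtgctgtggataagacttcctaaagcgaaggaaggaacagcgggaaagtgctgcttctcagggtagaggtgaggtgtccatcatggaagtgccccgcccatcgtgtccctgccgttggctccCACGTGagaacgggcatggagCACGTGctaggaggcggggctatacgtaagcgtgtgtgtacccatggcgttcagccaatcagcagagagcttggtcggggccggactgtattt
Mov10l1 (chr15:88982744-88983043, strand +): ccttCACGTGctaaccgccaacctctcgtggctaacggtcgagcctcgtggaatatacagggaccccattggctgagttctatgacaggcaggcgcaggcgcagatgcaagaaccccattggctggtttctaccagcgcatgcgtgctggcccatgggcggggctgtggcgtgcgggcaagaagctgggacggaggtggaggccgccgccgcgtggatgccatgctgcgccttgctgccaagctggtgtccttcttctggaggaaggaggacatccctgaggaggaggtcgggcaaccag
The window of Sycp3 holds 15 CpG dinucleotides and CACGTG at 2 places, the first beginning 64 bases before the start, and that of Mov10l1 holds 20 CpG and 1 match near its far end. On either strand CACGTG was found in 7.24% of all 27025 RefSeq windows and in 10.3% of the windows of tested genes. It was in 4 of the 10 windows matched to the 12 higher meiotic genes (Sycp1, Sycp3, Stag3 and Hormad1) and in 3 of the 8 matched to the 9 higher piRNA genes (Tdrd9, Mov10l1 and Ddx4). Such shares were not limited to germline lists. CACGTG was in 6 of 19 windows of higher lysosomal genes and 3 of 8 of lower H3K9 methylation and HUSH genes. In higher axon guidance genes it was in 0 of 14. TTCCCGC or its complement GCGGGAA, the core read by E2F proteins, was in 5 of the 10 meiotic windows. It was in 8.83% of the windows of tested genes and 4.67% of all windows. A match is only a run of letters and does not show that a factor binds there.

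**Figure D2:**
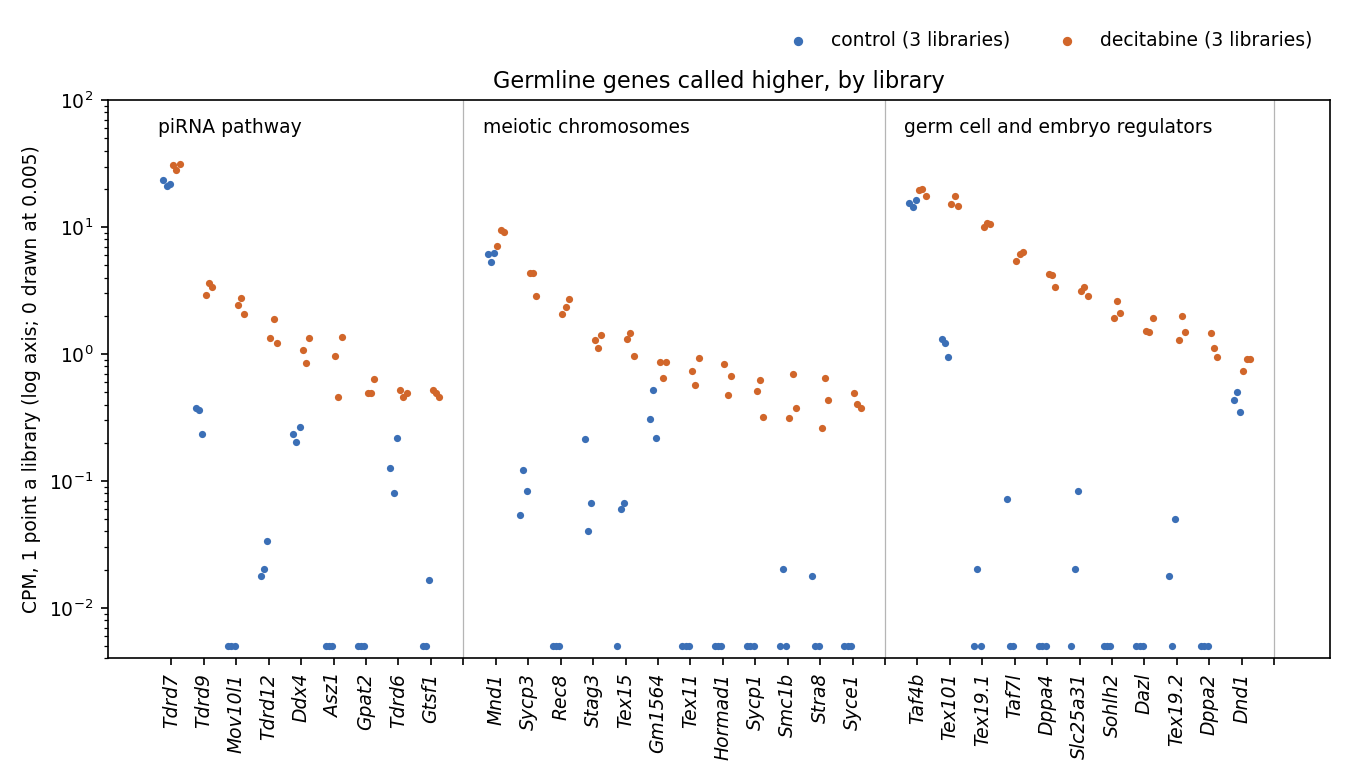
CPM of each germline gene called higher, 1 point a library on a log axis with 0 drawn at 0.005, blue for control and orange for decitabine. Members called lower or not called are not drawn, so that every gene shown sits higher by choice. Most rise from 0 or a few counts, and Tdrd7, Mnd1 and Taf4b were already above 5 CPM in the control.

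The X chromosome had the largest share of silent genes switched on. On X this was 46 of 478 silent protein-coding genes, or 9.62%, against 200 of 7467, or 2.68%, on the numbered chromosomes together. Single numbered chromosomes ran from 0.848% on chromosome 19 to 5.58% on chromosome 16. Without the genes of the X-linked runs given next, the X share was 5.26% (24 of 456), under the 5.58% of chromosome 16, whose own runs were kept. Among tested genes X was closer to the rest, with 139 of 470 higher and 95 lower. The share of all counts that came from X was not higher with decitabine. It was 2.93%, 2.90% and 2.92% in the control and 2.85%, 2.70% and 2.69% in the decitabine libraries (exact permutation test, two-sided, p = 0.1, the smallest possible). Neighbouring genes are not independent, and no test was made between chromosomes.

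**Figure D3:**
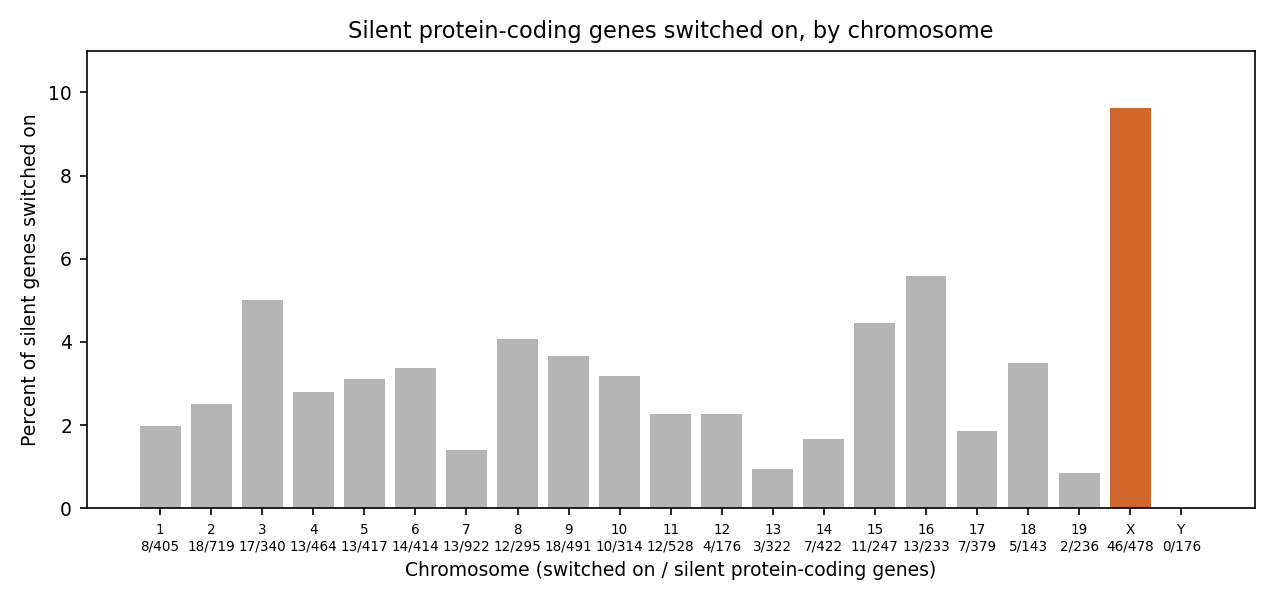
Percent of silent protein-coding genes that were switched on, by chromosome, with the number switched on over the number silent under each bar. The X bar stands at 9.62%, and chromosome 16 is the next at 5.58%.

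Counted in order along the chromosome with untested genes skipped, strong rises formed 17 runs of at least 3 protein-coding genes. A silent gene that stayed off is untested and so cannot break a run, and 7 of the 17 runs had no skipped protein-coding gene within their span. A run needs every tested member to be called higher at 4-fold or more, which held for 5.27% of protein-coding genes tested. The runs held 66 genes, 26 of them in 5 runs on X, and the longest had 10, from Gm9 and Rhox1 through 8 Rhox2 copies. Near-identical copies make up many of these runs, so that 1 transcript may have fed several counts. In 5 runs with 15 genes every member shared under 10% of its 31-base words with another gene.

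These 5 runs are given gene by gene because few of their words were shared with other genes. Dtx3l, which reaches to 35939151, and Parp9, which begins at 35938470, overlap on opposite strands. How counts in that stretch were divided was not tested. On chromosome 6 (18050964 to 18514843), Asz1, a piRNA factor of germ cells, Cftr, the chloride channel mutated in cystic fibrosis, and Cttnbp2, a neuronal cortactin partner, lie side by side. Asz1 had 0 control and 149 decitabine counts, Cftr 0 and 59, and Cttnbp2 22 and 114. All 3 rose. On chromosome 11 (121067407 to 121148319), Sectm1a, Tex19.2 and Tex19.1 had 0, 4 and 1 control counts and 172, 259 and 1698 decitabine counts. On chromosome 16 (35832874 to 35972605), Parp14, Dtx3l and Parp9, which act together in interferon-linked ADP-ribosylation and ubiquitin signalling, went from 25, 3 and 1 counts to 445, 173 and 168. On chromosome 9 (5298517 to 5373032), the inflammatory caspases Casp1, Casp4 and Casp12 went from 0, 5 and 26 to 49, 97 and 315 counts. The run on chromosome 1 (134037254 to 134332928), which spans 8 protein-coding genes, joined Fmod, a collagen-binding proteoglycan gene, Btg2, an antiproliferative gene, and Ppfia4, a liprin gene, of which Btg2 was already at 10.3 to 11.8 CPM in the control.

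Among genes with a control mean of at least 5 CPM, the largest rises in fold change were these. Ak1 (ENSMUSG00000026817, chromosome 2, 32621758 to 32635058), adenylate kinase, read 9.02, 10.2 and 9.44 CPM in the control libraries and 95.8, 99.7 and 107 CPM in the decitabine libraries (log2 fold change 3.40, SE 0.0737, adjusted p = 1.42e-16). Plk2, a kinase induced by cell stress, read 8.12, 7.04 and 7.72 CPM in the control libraries and 72.8, 64 and 74.9 CPM in the decitabine libraries (log2 fold change 3.21, SE 0.0799, adjusted p = 1.07e-15). Sepp1, which encodes the selenium carrier selenoprotein P, read 8.14, 6.03 and 6.15 CPM in the control libraries and 60.2, 65.9 and 65.3 CPM in the decitabine libraries (log2 fold change 3.23, SE 0.0991, adjusted p = 4.4e-12). In none of them did the groups come near each other. Trp53inp1, which p53 induces and which acts in cell death and autophagy, went up from 65.3 ± 4.58 to 346 ± 27.2 CPM (SD, n = 3 each) and Eda2r, a receptor for ectodysplasin A2, from 18.6 ± 0.734 to 96.3 ± 9.4 CPM (SD, n = 3 each). Ecm1, which encodes a secreted matrix protein, went up from 5.93 ± 0.36 to 32.3 ± 5.03 CPM (SD, n = 3 each). Wdr31, a WD-repeat gene of little known function, read 93.8, 95.6 and 72 CPM in the control libraries and 658, 872 and 736 CPM in the decitabine libraries.

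Ifit1 and Rsad2, antiviral genes that interferon induces, were among the 10 largest rises of this class. Ifit1, which shares 10.8% of its words with other genes and is uncertain, went from 10.4, 10.1 and 10.2 CPM to 96.6, 109.6 and 102 CPM. Rsad2, which encodes viperin, went from 11.9, 10.4 and 8.71 CPM to 63.4, 61.3 and 64.5 CPM. Their promoter windows are shown because both hold the interferon-stimulated response element core, GAAA, any 2 bases and GAAA again (TTTC in both places on the other strand), in capitals.
Ifit1 (chr19:34640639-34640938, strand +): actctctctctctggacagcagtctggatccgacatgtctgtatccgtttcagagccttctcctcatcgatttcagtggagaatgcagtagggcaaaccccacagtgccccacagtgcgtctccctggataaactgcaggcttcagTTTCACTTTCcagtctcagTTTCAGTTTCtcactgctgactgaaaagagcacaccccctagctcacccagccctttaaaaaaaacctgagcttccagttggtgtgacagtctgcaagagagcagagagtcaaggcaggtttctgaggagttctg
Rsad2 (chr12:26456403-26456702, strand -): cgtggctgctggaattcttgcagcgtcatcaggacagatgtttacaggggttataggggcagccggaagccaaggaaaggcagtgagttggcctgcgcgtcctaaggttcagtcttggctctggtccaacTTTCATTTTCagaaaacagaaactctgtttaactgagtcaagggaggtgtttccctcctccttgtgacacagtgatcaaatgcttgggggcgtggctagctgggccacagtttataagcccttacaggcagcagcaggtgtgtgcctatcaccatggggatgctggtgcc
These windows, from RefSeq GRCm38.p6 as before, hold 4 and 6 CpG dinucleotides. The core was present at 2 places in the Ifit1 window, the first beginning 104 bases before the start, at 1 place in that of Rsad2, and in 3.49% of all windows.

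Of the lists examined, that of amino acid supply had the largest share of tested members called lower. Of 28 tested genes of serine, one-carbon and amino acid supply, 22 were lower and 1 was higher, against 19.8% and 21.4% of all tested genes, and their median log2 fold change was -0.81 against 0.003 for all. Gpt2 (ENSMUSG00000031700, chromosome 8, 85492576 to 85527560), a mitochondrial alanine transaminase, read 114, 129 and 126 CPM in the control libraries and 41.8, 37.8 and 43 CPM in the decitabine libraries (log2 fold change -1.59, SE 0.0687, adjusted p = 2.49e-12). Cth, the cystathionine lyase that makes cysteine, read 22.9, 26.4 and 23.9 CPM in the control libraries and 8.4, 8.71 and 8.86 CPM in the decitabine libraries (log2 fold change -1.50, SE 0.089, adjusted p = 2.01e-10). Mthfd2, a folate enzyme of mitochondria, read 317, 325 and 320.1 CPM in the control libraries and 128, 134 and 145 CPM in the decitabine libraries (log2 fold change -1.24, SE 0.0577, adjusted p = 7.61e-12). The groups were far apart in all 3. Aldh18a1, the first enzyme of proline synthesis, fell from 226 ± 7.03 to 99.9 ± 5.14 CPM (SD, n = 3 each). Several importers of the list were lower: Slc7a5, which carries leucine and other large neutral amino acids, from 447 ± 27.5 to 197 ± 9.25 CPM, Slc1a5, which carries glutamine, from 134 ± 13.1 to 58.5 ± 2.49 CPM, and Slc1a4, from 72.3 ± 1.43 to 35.2 ± 0.316 CPM (SD, n = 3 each). Solute carriers as a whole, from which these 3 are taken, went both ways, with 54 higher and 50 lower of 215 tested, and Slc38a6, also an amino acid transporter gene, rose from 1201 to 4682 CPM, with an uncertain count given further on. The exception was Mthfd1, the cytosolic folate enzyme, which rose from 77.3 to 87.4 CPM; its adjusted p of 0.0216 was above 0.05 with library size scaling and when control replicate 1, decitabine replicate 2 or decitabine replicate 3 was dropped, at 0.0592 to 0.111. The number higher in this list ran from 0 to 3 over the alternatives and the number lower from 21 to 23.

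Trib3, Chac1, Nupr1 and Pck2, genes of the amino acid response, are given beside this list because they were among the 10 largest falls. Trib3, a pseudokinase, read 134, 179.7 and 153 CPM in the control libraries and 41.7, 37.2 and 46.6 CPM in the decitabine libraries (log2 fold change -1.89, SE 0.129, adjusted p = 2.14e-05), and control replicate 2 was the highest. Chac1 (ENSMUSG00000027313, chromosome 2, 119351229 to 119354381), which breaks down glutathione, read 50.7, 68.3 and 58.5 CPM in the control libraries and 15.9, 16 and 18.5 CPM in the decitabine libraries (log2 fold change -1.82, SE 0.106, adjusted p = 1.4e-07). Nupr1, a stress-induced chromatin protein gene, read 10.1, 10.2 and 9.81 CPM in the control libraries and 3.15, 3.44 and 3.26 CPM in the decitabine libraries (log2 fold change -1.61, SE 0.122, adjusted p = 5.88e-09). Pck2, mitochondrial phosphoenolpyruvate carboxykinase, fell from 126 ± 6.32 to 39.3 ± 2.71 CPM (SD, n = 3 each). The promoters of Chac1 and Nupr1 are shown because both hold TTGCATCA, the letters of a known amino acid response element bound by Atf4 dimers, in capitals.
Chac1 (chr2:119350992-119351291, strand +): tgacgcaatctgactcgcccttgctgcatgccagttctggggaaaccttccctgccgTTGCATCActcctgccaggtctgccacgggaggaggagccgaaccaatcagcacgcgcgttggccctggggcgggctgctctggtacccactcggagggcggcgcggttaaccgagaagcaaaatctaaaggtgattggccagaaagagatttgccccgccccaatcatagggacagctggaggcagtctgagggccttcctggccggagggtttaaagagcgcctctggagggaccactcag
Nupr1 (chr7:126625421-126625720, strand -): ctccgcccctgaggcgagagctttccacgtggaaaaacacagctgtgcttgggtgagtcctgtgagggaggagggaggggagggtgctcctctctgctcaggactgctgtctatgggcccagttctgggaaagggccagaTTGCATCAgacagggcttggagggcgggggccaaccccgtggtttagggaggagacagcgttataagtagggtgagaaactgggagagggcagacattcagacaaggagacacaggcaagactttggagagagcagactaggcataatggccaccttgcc
In these RefSeq GRCm38.p6 windows the match begins 193 bases before the start of Chac1 and 110 bases before that of Nupr1. On either strand TTGCATCA was in 0.929% of all windows. Among the 19 windows matched to the 22 lower amino acid supply genes it was in 2, those of Pycr1 and Slc1a4, and CACGTG was in 1. Of the 13 aminoacyl-tRNA synthetases called lower 8 had a window, 61.5%, which is too few for such a count, and it is void for them.

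Most tested enzymes that charge tRNAs were lower and most tested ribosome assembly genes higher, where 19.8% of all tested genes were lower and 21.4% higher. Of 20 tested aminoacyl-tRNA synthetases 13 were lower and 1 was higher, with a median log2 fold change of -0.49. Sars, for serine, read 439.5, 426 and 426 CPM in the control libraries and 257, 271 and 265 CPM in the decitabine libraries (log2 fold change -0.70, SE 0.0534, adjusted p = 5.66e-09), Mars, for methionine, fell from 227 ± 8.04 to 137 ± 3.45 CPM and Lars, for leucine, from 219 ± 1.78 to 131 ± 10.6 CPM (SD, n = 3 each). The higher one was Rars, for arginine, from 105 ± 1.48 to 140.1 ± 5.37 CPM (SD, n = 3 each). Of 59 genes of ribosome assembly 37 were higher and 1 was lower, with a median of 0.26. Nop2, an rRNA methyltransferase, read 127, 136 and 133 CPM in the control libraries and 191, 202 and 197 CPM in the decitabine libraries (log2 fold change 0.58, SE 0.0533, adjusted p = 7.78e-08). Noc3l, a nucleolar assembly factor, read 26.4, 29.1 and 26.7 CPM in the control libraries and 42.6, 40.9 and 41.1 CPM in the decitabine libraries (log2 fold change 0.60, SE 0.0635, adjusted p = 4.47e-07). Brix1, which acts on the large subunit, rose from 73.3 ± 1.33 to 108 ± 6.22 CPM (SD, n = 3 each). These are small and even steps, and non-overlap of the groups was a condition for naming these genes. The lower member, Ddx52, fell from 80.5 to 71 CPM (adjusted p = 0.0397), with an adjusted p of 0.0671 to 0.167 when any library but decitabine replicate 1 was left out and 0.0648 with a filter at 50 counts; the number lower then ran from 0 to 3 over the alternatives. In the windows of 34 of the 37 higher genes, CACGTG was found in 9, or 26.5%, against 10.3% of the windows of tested genes and 7.24% of all windows. Other lists differed, with 31.6% of windows for higher lysosomal genes and 9.30% for higher solute carriers.

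The proteins of the finished ribosome are a separate list. Of 82 tested ribosomal protein genes 4 were higher and 12 lower, which is below the 21.4% and 19.8% of all tested genes in both directions. Rps27l, a p53-responsive relative of Rps27, rose from 95.6 ± 7.79 to 144 ± 0.249 CPM and Rpl3, of the large subunit, fell from 1158 ± 31.2 to 933 ± 19.4 CPM (SD, n = 3 each). The number lower was 24 with library size scaling, and with 1 library dropped it was 5 (control replicate 1), 4 (control replicate 3), 7 (decitabine replicate 1), 23 (decitabine replicate 2) or 6 (decitabine replicate 3), so it depended on the scaling and on single libraries. The number higher was 8 without decitabine replicate 1. These genes share sequence with many processed copies, 59.3% of the words of Rpl3 and 17.1% of those of Rps27l among them, so that their counts are uncertain. Of 81 nuclear genes of oxidative phosphorylation 5 were higher and 14 lower. The number higher was 2 or 10 with control replicate 2 or decitabine replicate 1 dropped, respectively, and the number lower was 9, 6 and 7 with control replicate 1, control replicate 3 or decitabine replicate 3 dropped.

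**Figure D4:**
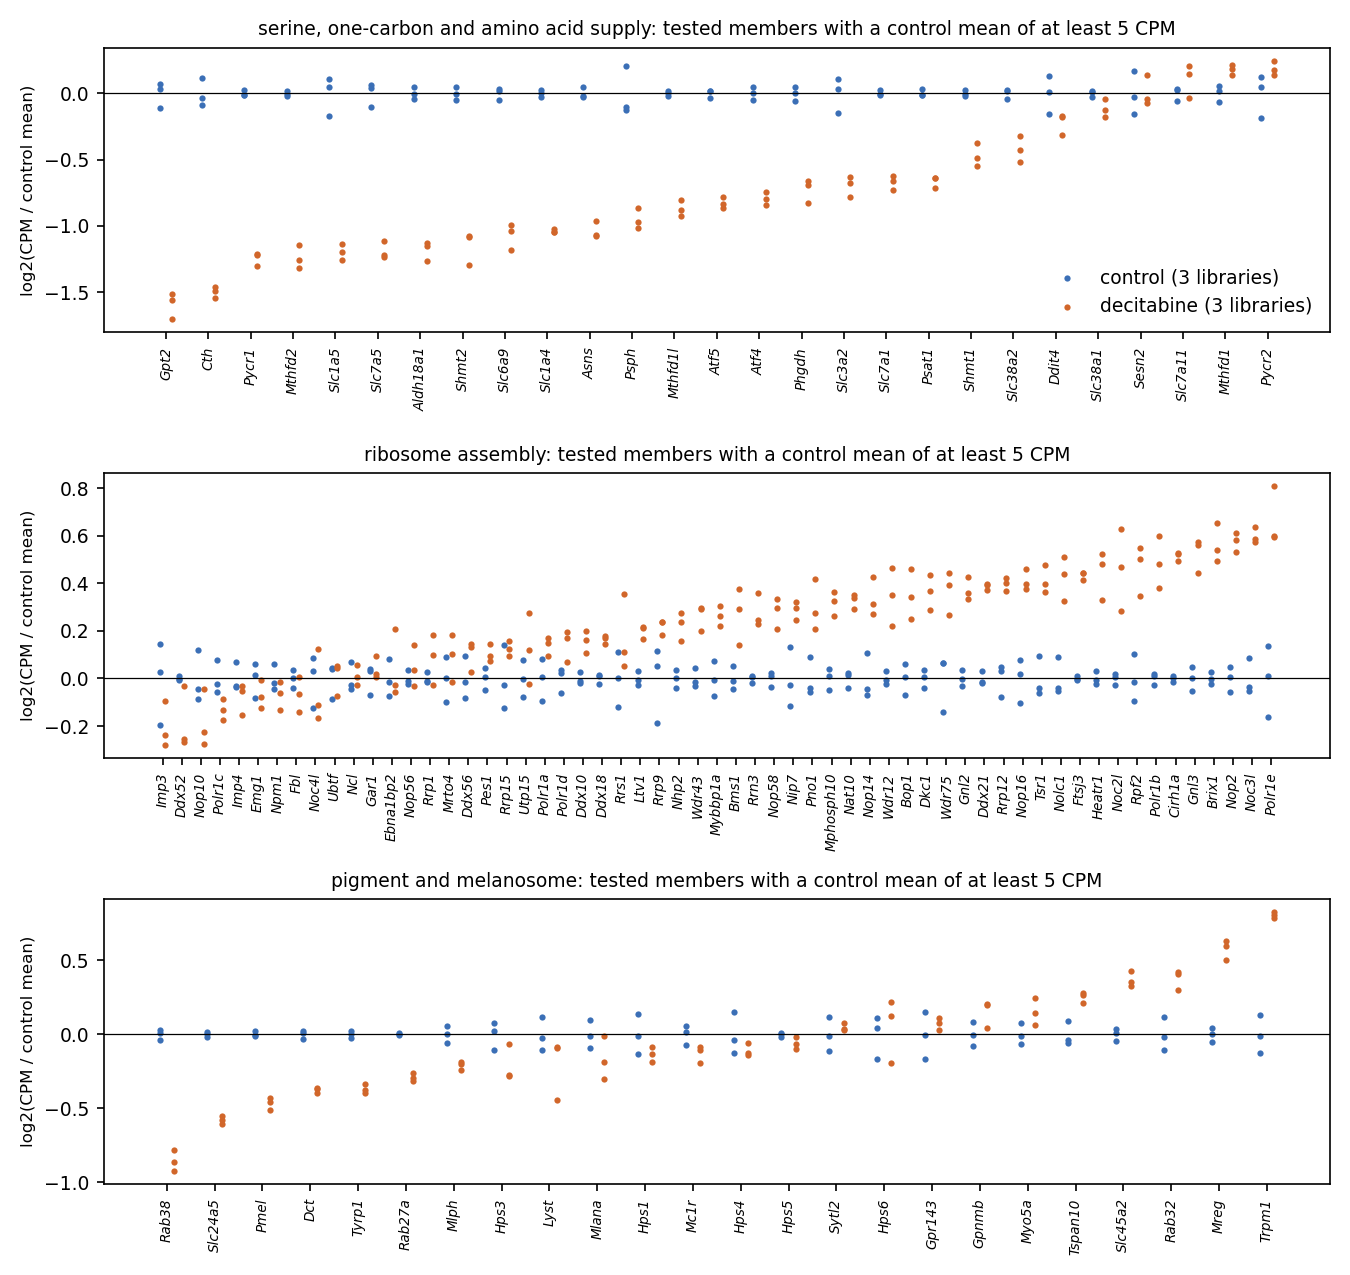
Log2 of CPM over the control mean for each tested member with at least 5 CPM in the control, 1 point a library, blue for control and orange for decitabine, in 3 lists. With decitabine 22 amino acid supply genes were called lower, 37 ribosome assembly genes were called higher, and of all 26 pigment genes, 2 of which are under 5 CPM and not drawn, 8 were called to each side.

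Antioxidant and lysosomal genes were more often higher than lower, where 21.4% of all tested genes were higher and 19.8% lower. Of 34 tested redox genes and targets of the transcription factor Nrf2, 18 were higher and 4 lower (2 with control replicate 3, decitabine replicate 1 or decitabine replicate 3 dropped). Srxn1, which repairs oxidised peroxiredoxins, read 64.6, 62.7 and 71 CPM in the control libraries and 162, 144 and 162 CPM in the decitabine libraries (log2 fold change 1.24, SE 0.0637, adjusted p = 2.77e-11). Gclm, a subunit of the enzyme that starts glutathione synthesis, read 44.2, 42.6 and 47.1 CPM in the control libraries and 88.9, 87 and 82.8 CPM in the decitabine libraries (log2 fold change 0.95, SE 0.063, adjusted p = 8.53e-10). Sod3, the secreted superoxide dismutase, went up from 7.25 ± 0.76 to 20.5 ± 1.28 CPM (SD, n = 3 each). Of 48 tested lysosomal genes 23 were higher and 6 lower. Ctsb, a cysteine protease, read 371, 339 and 383 CPM in the control libraries and 604, 605 and 629.5 CPM in the decitabine libraries (log2 fold change 0.75, SE 0.0576, adjusted p = 6.32e-09), and Ctsd, an aspartic protease that shares 33.2% of its words with other genes and is uncertain, rose from 748 ± 8.29 to 1035 ± 35.9 CPM (SD, n = 3 each). Naglu, which degrades heparan sulphate, fell (log2 fold change -0.42, SE 0.0729, adjusted p = 0.000136).

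Growth factor receptors and the feedback genes of the MAPK pathway were more often higher than lower, where 21.4% of all tested genes were higher and 19.8% lower. Besides Fgfr1, the receptor of melanocyte precursors Kit read 0.036, 0.0404 and 0 CPM in the control libraries and 2.43, 3.11 and 2.59 CPM in the decitabine libraries (log2 fold change 6.67, SE 0.474, adjusted p = 2.29e-09), and Ddr1, a collagen receptor, rose from 109 ± 6.05 to 141 ± 11 CPM, while its relative Ddr2 fell from 250.2 ± 10.9 to 146 ± 5.45 CPM (SD, n = 3 each). Of 21 tested receptor tyrosine kinases 8 were higher and 2 lower. Of the 38 listed, 13 were silent in the control and 1 of these, Fgfr1, was switched on. Silent receptor genes could be tested only if they rose, so the tested share does not describe the whole list. Of 23 tested genes of MAPK feedback and output 12 were higher. Ccnd1 (ENSMUSG00000070348, chromosome 7, 144929931 to 144939925), cyclin D1, read 82, 86.5 and 84.6 CPM in the control libraries and 269, 256 and 263 CPM in the decitabine libraries (log2 fold change 1.64, SE 0.0536, adjusted p = 3.98e-14). Dusp6 and Dusp4, phosphatases that switch off MAP kinases, read 52.3, 60.7 and 60.2 CPM in the control libraries and 107, 99.3 and 110.1 CPM in the decitabine libraries for Dusp6 and 48.2, 57.8 and 52.4 against 93.4, 89.3 and 95.2 CPM for Dusp4. For these genes every treated library was above every control, which was a condition for naming them. The 3 lower members, Etv1, Spred1 and Phlda1, had log2 fold changes of -0.35, -0.19 and -0.16. Of these, Etv1 shares 21.45% of its words with other genes and is uncertain. The number lower was 1 with limma-voom, with a filter at 50 counts and with any control library or decitabine replicate 2 dropped.

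Other signalling lists held members called in both directions, beside 21.4% higher and 19.8% lower among all tested genes. Their silent members could be tested only if they rose. Silent were 23 of 59 listed TGF-beta and BMP genes and 8 of 28 Notch genes. In the Wnt list 26 of 50 were silent, and in the axon guidance list 17 of 68. In the TGF-beta and BMP list 14 of 36 tested genes were higher and 4 lower (7 lower without decitabine replicate 1). Id3, an inhibitor of basic helix-loop-helix factors and a BMP target, rose from 11.4 ± 0.311 to 29 ± 2.14 CPM, and Bmp4, a secreted ligand, had 1 control count and 150 decitabine counts. Among Notch genes 5 of 18 were higher and 4 lower, near those shares. Notch3 was switched on with 0 control and 76 decitabine counts and Notch1 rose from 1.21 ± 0.113 to 2.54 ± 0.445 CPM, while Notch2, with more control counts than Notch1, fell from 73 ± 5.76 to 60.7 ± 2.96 CPM (SD, n = 3 each). For the Wnt list the counts were 5 higher and 6 lower of 19 (3 lower without control replicate 2, 9 higher with no filter), with Lgr5, a stem cell receptor, rising from 0.12 to 1.39 CPM and Fzd4, a frizzled receptor, falling from 9.86 to 6.44 CPM. Of 47 axon guidance genes 15 were higher (9 with a filter at 50 counts) and 10 lower, near the share of all tested genes in the lower direction. Sema6a rose from 60.5 ± 2.58 to 115 ± 4.61 CPM and Nrp2, a semaphorin coreceptor, fell from 405 ± 23.9 to 292 ± 5.98 CPM (SD, n = 3 each).

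Pigment genes were called in both directions. Of 26 melanosome genes, all of them tested, 8 were higher and 8 lower, or 30.8% each against 21.4% and 19.8% of all tested genes, with a median log2 fold change of -0.08. Dct, Pmel and Tyrp1 had the highest control counts of the list after Gpnmb, and fell. Dct, dopachrome tautomerase, read 4926, 4796 and 4976 CPM in the control libraries and 3819, 3722 and 3787 CPM in the decitabine libraries (log2 fold change -0.38, SE 0.0437, adjusted p = 1.36e-06). Pmel, the protein of the melanosome's fibrils, read 3159, 3174 and 3237 CPM in the control libraries and 2239, 2323 and 2368 CPM in the decitabine libraries (log2 fold change -0.47, SE 0.0464, adjusted p = 1.96e-07). Tyrp1, tyrosinase-related protein 1, read 2934, 2837 and 2898 CPM in the control libraries and 2228, 2287 and 2197 CPM in the decitabine libraries (log2 fold change -0.37, SE 0.0461, adjusted p = 3.29e-06). Tyr, the tyrosinase that starts melanin synthesis, went the other way from 4.01, 2.76 and 3.61 CPM to 7.86, 8.36 and 6.39 CPM (log2 fold change 1.12, SE 0.158, adjusted p = 1.36e-05). Trpm1, a channel gene of melanocytes, rose from 62.7 ± 5.49 to 109.6 ± 1.49 CPM, and Rab38, which carries enzymes to the melanosome, fell from 514 ± 11.8 to 284 ± 13.6 CPM (SD, n = 3 each).

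The lineage genes Mitf, Mlana and Sox10 had log2 fold changes between -0.13 and -0.18. Mitf, the master regulator of melanocytes, read 494, 508 and 465 CPM in the control libraries and 469, 431 and 440.5 CPM in the decitabine libraries, with decitabine replicate 1 inside the range of the controls (log2 fold change -0.13, SE 0.0567, adjusted p = 0.075). Mlana, a melanosome antigen gene, also overlapped between the groups (log2 fold change -0.16, SE 0.0698, adjusted p = 0.0776). Sox10, a neural crest factor, was just past the threshold, with 631, 631 and 598 CPM against 481, 572 and 588 CPM (log2 fold change -0.18, SE 0.0673, adjusted p = 0.0402), and missed it with RLE size factors, limma-voom or a stricter filter and without any of 4 single libraries, at 0.0504 to 0.122. Sox5 and Sox6, relatives of Sox10 in another group of the Sox family, fell from 39.5 ± 4.05 to 20.4 ± 0.813 CPM and from 103 ± 5.58 to 71.8 ± 1.92 CPM (SD, n = 3 each).

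Among lists of chromatin repressors, polycomb and H3K9 methylation had more members lower than higher, and histone deacetylases and sirtuins had 4 of 18 each way (2 lower with control replicate 3 or decitabine replicate 2 dropped). Of all tested genes 19.8% were lower and 21.4% higher. Of 34 polycomb genes 12 were lower and 3 higher. Ezh2, the H3K27 methyltransferase, read 226, 219 and 216 CPM in the control libraries and 172, 167 and 164 CPM in the decitabine libraries (log2 fold change -0.40, SE 0.0525, adjusted p = 6.86e-06), Suz12, its partner, fell from 232 ± 7.83 to 162 ± 12.5 CPM and Jarid2, which guides the complex, from 90.3 ± 4.45 to 62.3 ± 0.838 CPM (SD, n = 3 each). Of 19 genes of H3K9 methylation and the HUSH complex 8 were lower, among them Chaf1b, a histone chaperone of replication, from 48.5 ± 0.649 to 29.2 ± 1.9 CPM, and 3 were higher, led by Suv39h2, an H3K9 methyltransferase, from 10.8 ± 0.803 to 21.2 ± 1.71 CPM (SD, n = 3 each). Of 11 tested histone variants 7 were lower and 2 higher (1 with library size scaling or no filter, and with any library but decitabine replicate 1 dropped). H1f0, the linker histone of resting cells, read 689, 789 and 679 CPM in the control libraries and 330.3, 375 and 382 CPM in the decitabine libraries (log2 fold change -0.99, SE 0.0691, adjusted p = 4.93e-09) and H2afz, which encodes H2A.Z and shares 31.9% of its words with other genes, so that it is uncertain, fell from 528 ± 28.1 to 349.6 ± 9.52 CPM (SD, n = 3 each). Replication-dependent histone genes, whose transcripts have no poly(A) tail, had 6 of 32 tested higher and 1 lower (0 to 4 over the alternatives) and took 0.00533% ± 0.000284 of control counts and 0.0107% ± 0.00110 of decitabine counts (SD, n = 3 each; exact permutation test, two-sided, p = 0.1, the smallest possible). Hist1h2bc, with 32.7% of its words shared with other genes and thus uncertain, rose from 8.78 to 38 CPM.

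Nucleotide synthesis genes went both ways. Of 30 genes 12 were lower and 8 higher, against 19.8% and 21.4% of all tested genes (5 higher with library size scaling or with control replicate 1 or decitabine replicate 2 dropped). Among those of thymidylate and deoxynucleotides, the kinase gene Tk1 went down from 104 ± 8.12 to 50.1 ± 0.908 CPM, and the dUTPase gene Dut from 57.5 ± 6.68 to 35.6 ± 0.959 CPM (SD, n = 3 each). Genes that build the purine and pyrimidine rings were found on both sides, with Paics and Pfas (purines) and Dhodh (pyrimidines) called lower. Gart, of purine synthesis, rose from 51.4 ± 2.43 to 66.5 ± 2.9 CPM, Impdh1 from 76.6 ± 2.87 to 96.3 ± 4.35 CPM and Cad from 124 ± 3.19 to 147 ± 3.77 CPM (SD, n = 3 each).

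**Figure D5:**
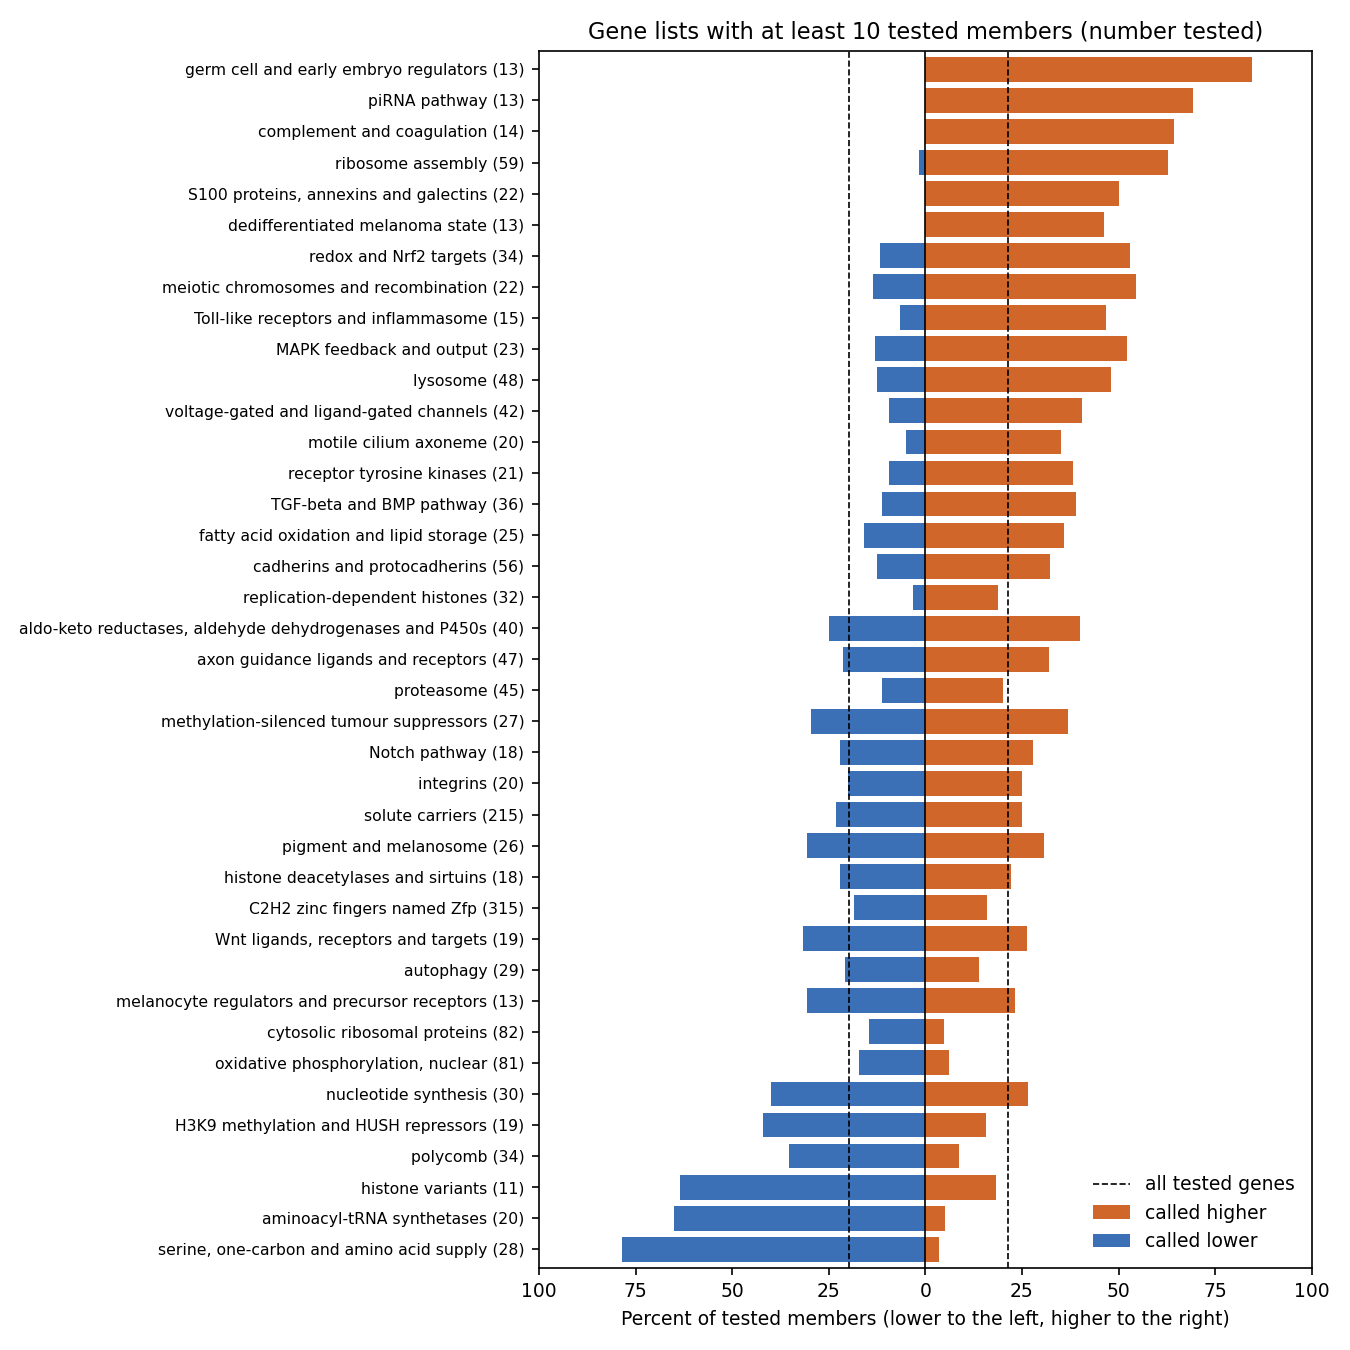
Percent of tested members called higher (right, orange) and lower (left, blue) for each gene list with at least 10 tested members, with the number tested in brackets and dashed lines at the 21.4% and 19.8% of all tested genes. Germline and ribosome assembly lists lie far to the right, as do complement and coagulation genes and S100, annexin and galectin genes. Amino acid supply, tRNA synthetases and histone variants lie far to the left. Lists of mostly silent genes hold only the members that passed the count filter.

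By the size of the difference in CPM, the 6 largest gains and 6 largest losses were in abundant transcripts, several of them with near-copies. Slc38a6, an amino acid transporter gene, read 1196, 1186 and 1221 CPM in the control libraries and 4859, 4751 and 4435 CPM in the decitabine libraries, Ccrn4l, a circadian deadenylase-like gene, 2399, 2292 and 2208 CPM in the control libraries and 6220, 6686 and 6008 CPM in the decitabine libraries and Rab3gap1, a Rab GTPase-activating subunit, 325, 304 and 316 CPM in the control libraries and 1064, 1124 and 1024 CPM in the decitabine libraries. Slc38a6 and Ccrn4l share 37.3% and 27% of their words with other genes, and so do Hspa8, mt-Co1 and mt-Co3 with 64.2%, 64.1% and 100.0%, so that these gains are uncertain. The losses were Gapdh, from 9831, 9450 and 9786 CPM to 6222, 7178 and 7295 CPM, Tpi1, from 1765, 1693 and 1731 CPM to 1081, 1158 and 1125 CPM, Tuba1b, from 2365 to 1731 CPM, and the pigment genes Dct, Pmel and Tyrp1. Gapdh, Tuba1b and Tpi1 share 42.6%, 68.9% and 16.1% of their words with other genes and are uncertain as well.

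Among genes that had fallen furthest outside amino acid supply, several act at the cell surface. Tspan18, a tetraspanin, read 16.9, 15 and 15.8 CPM in the control libraries and 3.38, 4.17 and 3.82 CPM in the decitabine libraries (log2 fold change -2.07, SE 0.117, adjusted p = 9.4e-11). Tenm4, a teneurin of cell contacts, read 81.8, 71.8 and 74 CPM in the control libraries and 25.2, 28.9 and 26.9 CPM in the decitabine libraries (log2 fold change -1.49, SE 0.0704, adjusted p = 9.15e-12). Kirrel3, an adhesion molecule of neurons, fell from 8.04 ± 0.321 to 2.75 ± 0.508 CPM and Pdk1, the kinase that restrains pyruvate dehydrogenase, from 66.4 ± 1.72 to 22.8 ± 0.621 CPM (SD, n = 3 each). All of the decitabine libraries lay below all controls for each, which was a condition for naming them.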

How the data were processed

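RNA-seq was read from 3 control and 3 decitabine libraries of B16F10. The deposited values are estimated counts per gene, 1 column a library, of which 9.54% to 10.9% were not whole; the submitters' processing notes name RSEM, edgeR and mm10, and give no versions or roles. Which aligner and annotation were used is not stated there, and the series text names more than 1 kind of sequencer without saying which library was run on which. Of 46517 IDs, 46005 were matched to GENCODE annotation for biotype and position on the same build, 27 symbols were restored and 1 repeated ID was separated. Estimated counts were rounded and tested with edgeR 4.0.16 in R 4.3.3 (filterByExpr with a minimum count of 10, TMM factors, robust quasi-likelihood fit, Benjamini-Hochberg adjusted p under 0.05). The fit was tested on simulated data with known fold changes. CPM is the rounded count scaled to a common library total. Alternatives used DESeq2 1.42.0 and limma 3.58.1. Summaries were made with Python 3.11.15, pandas 2.3.3, scipy 1.17.1 and matplotlib 3.10.9.

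The members and gene lists were chosen with earlier results of these data known. Genes named are those whose groups did not overlap and that led by fold change above 5 CPM, by decitabine CPM among silent genes, by CPM difference, or by adjusted p within a list, plus Dnmt1, melanocyte markers and genes in runs; genes given only inside a count or a promoter match were named for that. For genes named by such a rank, non-overlap was a condition and not a result. Over all tested genes the groups did not overlap in 26.0% with decitabine higher and in 24.4% with decitabine lower. The ranks leave out names of Gm plus digits, Rik names and clone names. A gene sharing 31-base words with another gene may hold counts of its copy. Counting intervals and floors cover counting error only. Promoter sequences are from RefSeq. A planned comparison of CpG-rich promoters was void, since 76.8% of the switched-on genes had a window, and was not run. Some items are not reported here.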

Additional observations from a re-analysis of the deposited data

How the results depend on the processing

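The counts of 3070 higher and 2840 lower genes stayed within 1.5 times under every alternative, and no gene called in the main analysis was called in the opposite direction. They were 3142 and 2702 with RLE size factors, 2765 and 3161 with library size only, 3172 and 2728 with DESeq2, and 3047 and 2759 with limma-voom. Without 1 library they ran from 2695 to 3097 and from 2374 to 2818. The filter decided the counts of large changes. With a minimum count of 50, 609 genes were at least 2-fold higher, 65 at least 2-fold lower and 142 at least 16-fold higher, and 50 silent genes were switched on. With no filter, 770 were at least 16-fold higher and 698 silent genes were switched on. Silent genes switched on numbered 150 where silent meant 0 control counts, and 300 to 397 without 1 library. The difference in genes detected per library, 1944 at 1 count or more, was 945.7 at 10 counts or more. Of 304 named genes that were called, 285 kept their call under every alternative in which they were tested; 54 were not tested with a minimum count of 50. The labels do not say whether libraries of the same replicate number are paired. The deviations of same-numbered libraries from their group means correlated at -0.358, -0.316 and -0.004 across genes. This cannot decide the question, since deviations within a group of 3 are not independent. With the replicate block 2947 genes were higher and 2781 lower. Genes near 3 counts a library, 0.0509 to 0.0618 CPM by library total alone, are not resolved at this depth.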

Other observations

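Genes detected per library, counted at 1 count or more, numbered 17740, 17300 and 17490 in the control and 20000, 19060 and 19300 with decitabine, so the groups did not overlap (exact permutation test, two-sided, p = 0.1, the smallest possible). The counts that follow stand beside 21.4% higher and 19.8% lower among all tested genes. Of 22 tested S100, annexin and galectin genes 11 were higher and 0 lower, and of 14 tested complement and coagulation genes 9 were higher and 0 lower. Silent members could be tested only if they rose. They were 9 of 33 listed in the first list, with 0 switched on, and 15 of 32 in the second, with 1 switched on. Of 42 tested ion channel genes 17 were higher and 4 lower, and 4 of 117 silent members of 175 were switched on; with a filter at 50 counts 9 were higher, and with no filter 28. Of 27 tested genes from a list of tumour suppressors known to be silenced by methylation, 10 were higher (3 with a filter at 50 counts) and 8 lower (4 without decitabine replicate 2, and 5 without control replicate 1 or 2). Of the 54 genes on this list 24 were silent and 1 was switched on, beside 3.03% of all silent protein-coding genes. Of 315 tested zinc finger genes named Zfp 50 were higher and 58 lower (32 without control replicate 2), shares of 15.9% and 18.4%. Of 56 tested cadherin and protocadherin genes 18 were higher and 7 lower, and 1 of 33 silent members of 93 was switched on. The proteasome list had 9 of 45 higher, close to that share, and 5 lower, the latter 0, 2 and 1 when control replicate 3, decitabine replicate 2 or decitabine replicate 3 was dropped.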
